A study of Mus musculus with 8 samples.

Results

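Cyclic AMP (cAMP) and cyclic GMP (cGMP) are small intracellular messengers, and the genes described here encode the enzymes that make them, the enzymes that break them down and the kinases that read them. Members were all probesets of the array annotated with a single gene symbol of the adenylyl cyclase (Adcy), guanylyl cyclase (Gucy), phosphodiesterase (Pde), cAMP-dependent kinase (Prkar and Prkac) or cGMP-dependent kinase (Prkg1 and Prkg2) families, without Pde4dip. This gave 54 of 35512 probesets, for 51 genes. The catalytic subunit Prkaca shares its probeset with other symbols and is not among them. Of the 54 probesets, 42 (40 genes) reached a mean linear signal of 60 in at least 1 group and were tested, and 12 did not. Expression was compared between midbrain dopaminergic (mDA) neurons of the substantia nigra pars compacta (SNc) and the ventral tegmental area (VTA), with and without the transcription factor Pitx3.

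Adenylyl cyclases turn ATP into cAMP under the control of stimulatory and inhibitory G proteins. In dopaminergic neurons the inhibitory arm is used by the D2 autoreceptor, through which dopamine lowers cAMP. Soluble guanylyl cyclase is a dimer of an alpha and a beta subunit that makes cGMP when nitric oxide binds to it, while receptor guanylyl cyclases are switched on by peptides at the cell surface. Phosphodiesterases end both signals, some families acting on cAMP, some on cGMP and some on both. Protein kinase A (PKA) is held inactive by its regulatory subunits until cAMP binds them, and protein kinase G (PKG) is activated by cGMP.

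Each of the 4 groups, SNc WT and SNc KO from the nigra and VTA WT and VTA KO from the tegmental area, had 2 Affymetrix Mouse Gene 1.0 ST arrays. WT stands for Pitx3+/+ and KO for Pitx3-/-, and all mice were pups of the strain labelled C57Bl/6 (C57Bl/6J in the methods) aged P1-P4 that carried Th-EGFP+/-, a reporter that marks cells in which the tyrosine hydroxylase (Th) promoter is active. Live EGFP+ cells were sorted from each dissected region, batches of sorted cells were pooled for a sample, and the RNA was amplified. The paper reports that in Pitx3-/- mice the Pitx3-positive neurons of the SNc are already gone when the pups are born. SNc KO and SNc WT therefore also differ in which neurons remained to be sorted. In the VTA, it reports that the neurons expressing Pitx3 are still intact at birth and die later. The paper describes RNA purified in duplicate from each of 4 cell preparations and does not state whether the duplicates came from different animals. A p-value here therefore measures only how far these samples differ, which may be technical. In such bulk samples, fewer cells of a type and less RNA per cell cannot be told apart.

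All 12 markers of dopaminergic neurons passed the signal minimum on these arrays, and Th lay between 10.01 and 10.34 on the log2 scale. The Pitx3 probeset lay between 7.63 and 8.10 and was not lower in the KO arrays. The part of the gene that it probes is not stated, so it checks neither genotype. Array medians lay between 6.11 and 6.24. The standard deviation between duplicate arrays over all tested probesets was 0.242 for SNc WT, 0.252 for SNc KO, 0.241 for VTA WT and 0.376 for VTA KO. Over the members it was 0.184, 0.303, 0.186 and 0.268 in the same order. The value of 0.303 in SNc KO rests largely on 1 probeset, Pde4d 10407122. Its own standard deviation was 1.78 in SNc KO and 1.08 in VTA KO, the largest of the members in both. Markers of other cell types were also present at levels that differed between groups, and their summed linear signals are given with the comparisons.

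The PKA subunits gave the highest signals of the family. Signals of different probesets depend on the probes as well as on the RNA, so their order is not an order of transcript number. Prkacb, a catalytic subunit of PKA, averaged 10.61 over the 8 arrays, and Prkar2b, the regulatory subunit typical of neurons, averaged 9.92. Among the adenylyl cyclases the highest mean was that of Adcy2 at 7.91, a form stimulated by G protein beta-gamma subunits. The calmodulin-activated Adcy1 followed at 7.67. Gucy2c, the receptor for guanylin and uroguanylin that is best known from the intestine, was the only receptor guanylyl cyclase over the minimum and averaged 7.87. The other 4 receptor guanylyl cyclase probesets (Gucy2d, Gucy2e, Gucy2f and Gucy2g) lay below the minimum in every group, as did the sperm-type soluble cyclase Adcy10, the soluble guanylyl cyclase subunit Gucy1b2 and the catalytic subunits of the photoreceptor phosphodiesterase Pde6a, Pde6b and Pde6c. Pde8a, Pde11a and 1 of the 2 Prkg2 probesets completed the 12. Of the 42 tested probesets, 36 were over the minimum in all 4 groups. The exceptions were Pde4d 10407122, Pde5a, Pde6g, Pde6h, Pde7b and Prkg2, which passed through only some of the groups, Pde6h through VTA WT alone. The mean over the 8 arrays, which does not depend on a single group, was over the minimum for 41 of the 42.

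**Figure D1:**
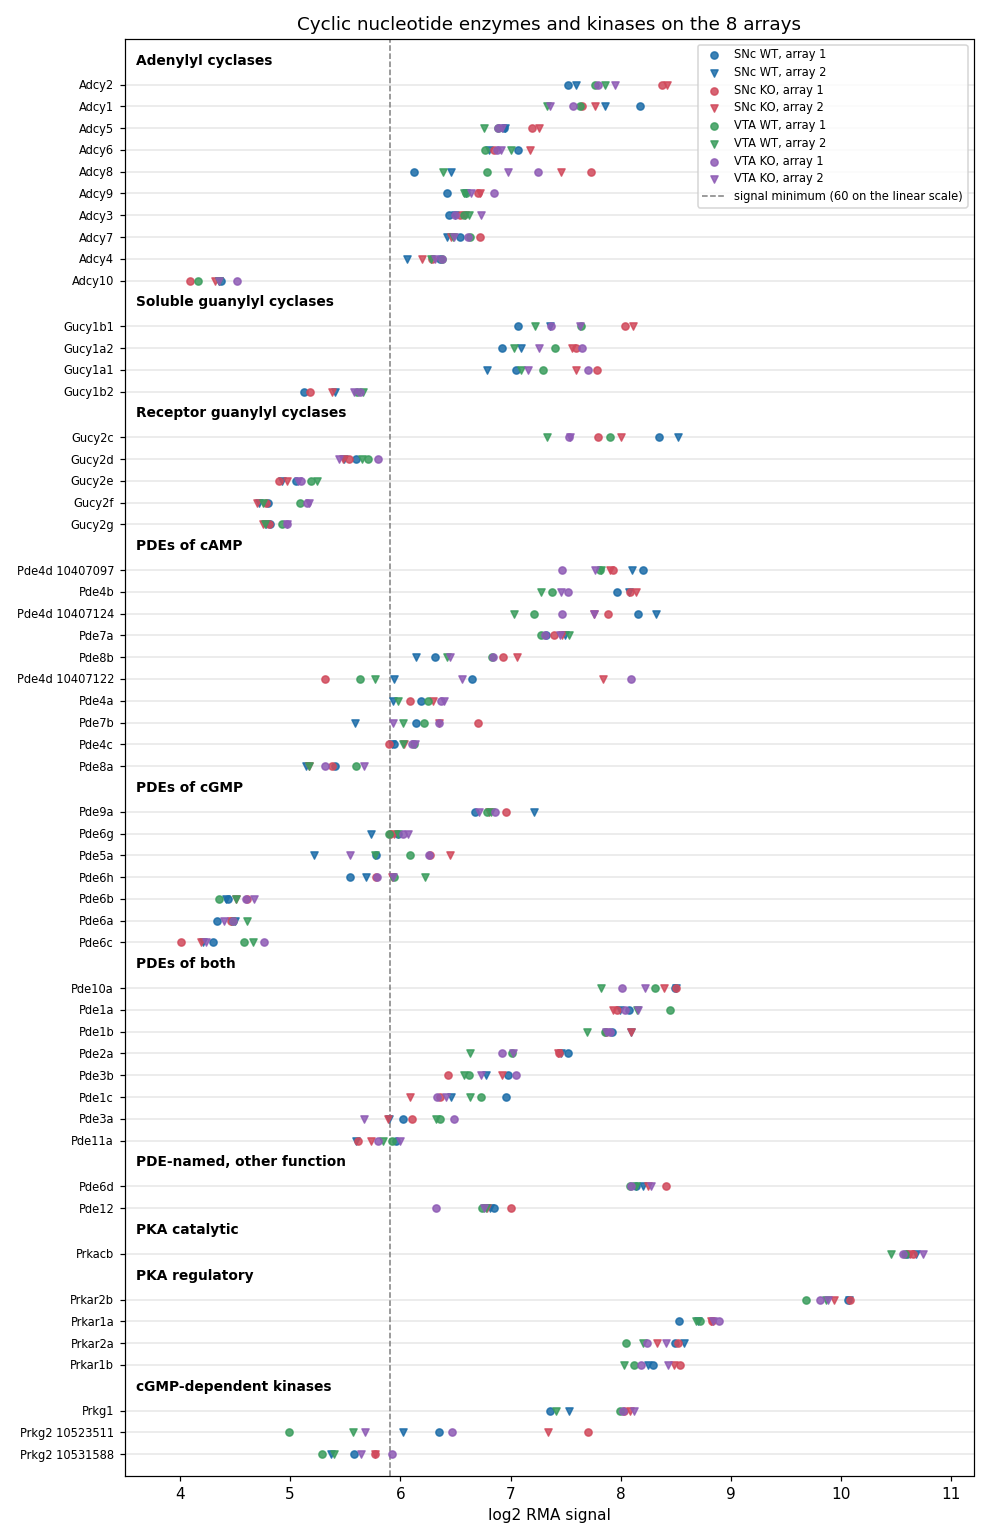
Log2 RMA signal of the 54 member probesets (rows, grouped by role and ordered by mean) on each of the 8 arrays, with circles for array 1 and triangles for array 2 of a group and colours for the groups. The dashed line is the signal minimum of 60 on the linear scale; Prkacb and Prkar2b stand at the high end, and the SNc KO arrays lie to the right of the SNc WT arrays for Adcy2, Adcy8, the soluble guanylyl cyclase subunits Gucy1a1, Gucy1a2 and Gucy1b1, and Prkg2 10523511.

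RefSeq promoter windows (GRCm38.p6), reaching 250 bases upstream of a transcript's start, were available for 40 of the 51 genes (79 windows). The Pitx binding core TAATCC, on either strand, was in 5 of 79 windows (6.33%), against 6.25% of the 32851 windows of all genes. The genes were Gucy2e, Gucy2f, Pde1a, Pde7b and Prkg1. The full cAMP response element TGACGTCA was in 1 window (1.27%, against 1.55% of all), and its core TGACG, which it contains, in 15 windows of 13 genes (19.0%, against 17.8%). The share of windows with a match was thus close to that of all genes for each motif, and a match is a description of the letters only. The stretches below are those of Pde7b and Prkg1, which had a Pitx core, and of Prkar1a, which had the full cAMP response element. Those of Pde4b and Gucy1b1, which had its core, follow. Pde7b and Prkg1 both read higher in SNc KO than in SNc WT, but neither difference had an adjusted p under 0.05 by limma. Capitals mark the match, and each stretch is written in the direction of the gene.
Pde7b, chr10:20548467-20548522, minus strand, match 169 bases upstream of the start: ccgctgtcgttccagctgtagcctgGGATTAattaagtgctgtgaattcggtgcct
Prkg1, chr19:31765034-31765066, minus strand, match 8 bases upstream of the start: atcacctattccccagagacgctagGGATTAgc
Prkar1a, chr11:109650875-109650932, plus strand, match 49 bases upstream of the start: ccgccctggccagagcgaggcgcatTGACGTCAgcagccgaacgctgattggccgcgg
Gucy1b1, chr3:82074712-82074764, minus strand, match 28 bases upstream of the start: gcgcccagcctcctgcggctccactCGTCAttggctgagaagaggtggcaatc
Pde4b, chr4:102421496-102421550, plus strand, match 34 bases upstream of the start: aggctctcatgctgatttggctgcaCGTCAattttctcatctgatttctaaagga

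SNc WT against VTA WT asked which members differ between the mDA neurons of the 2 regions. The PDE4 enzymes break down cAMP and are the targets of rolipram. A probeset of Pde4d (10407124) was higher in SNc WT and was the only member called at an adjusted p under 0.05. It read 8.16 and 8.32 in SNc WT, 7.88 and 7.76 in SNc KO, 7.21 and 7.03 in VTA WT, and 7.47 and 7.76 in VTA KO. The SNc WT arrays were the highest and the VTA WT arrays the lowest, with no overlap between them. The difference was 1.12 on the log2 scale (SE 0.144, n = 2 against 2, fold 2.17, adjusted p = 0.0435 by limma). Over all 22112 tested probesets, 0.0814% were called higher and 0.357% lower in SNc WT. The call ended without any 1 of the 4 arrays compared. It also ended without either SNc KO array, which enter only through the shared estimate of the spread. Such a fit leaves a group with 1 array. Most calls over all probesets ended there too, so the loss is not particular to Pde4d. The difference was 1.03 to 1.21 when an array was left out.

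The 3 Pde4d probesets did not give the same difference. Probeset 10407097 read 8.20 and 8.10 in SNc WT, 7.93 and 7.90 in SNc KO, 7.81 and 7.82 in VTA WT, and 7.47 and 7.77 in VTA KO. It had the same order of SNc WT over VTA WT without overlap, with a smaller difference of 0.33 that was not called (adjusted p = 0.242 by limma). Probeset 10407122 ranged from 5.32 to 7.84 within SNc KO and from 6.56 to 8.09 within VTA KO, with an SD between duplicate arrays of 1.78 and 1.08. Its difference between the WT groups was 0.60 with a standard error of 0.854. Which exons each probeset covers is not given in the sources used here.

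**Figure D2:**
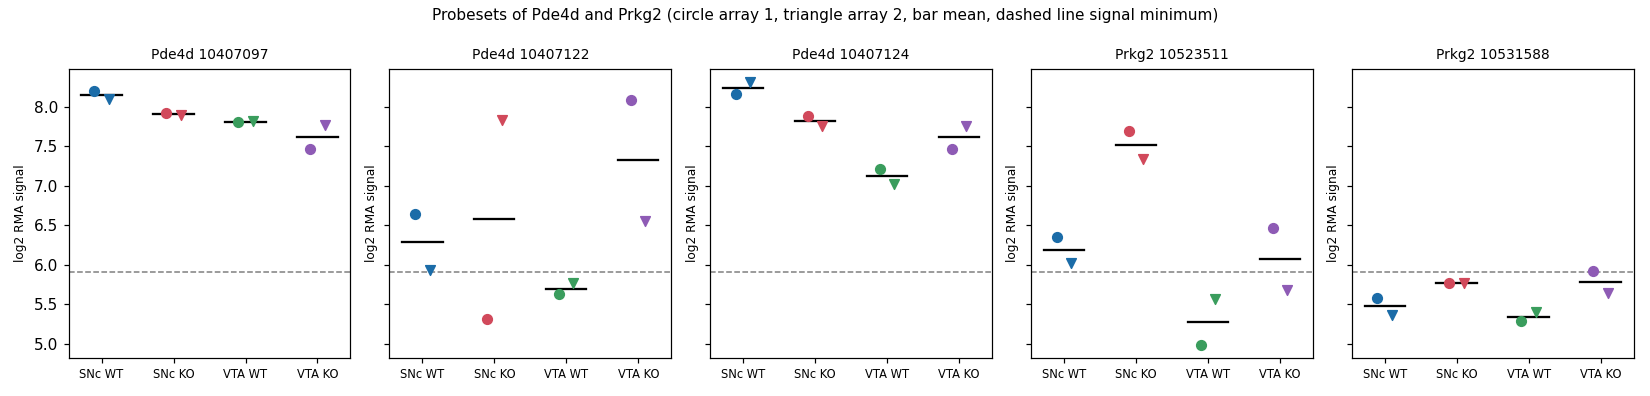
Log2 RMA signal of the 3 Pde4d and 2 Prkg2 probesets on each array, by group, with circles for array 1, triangles for array 2, bars for the mean of 2 arrays and a dashed line at the signal minimum. Pde4d 10407124 is highest in SNc WT (8.16 and 8.32) and lowest in VTA WT (7.21 and 7.03), Pde4d 10407122 differs most between duplicates, and Prkg2 10523511 is highest in SNc KO (7.70 and 7.34).

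The thresholds of the study ask for an unadjusted p up to 0.05, a fold no smaller than 1.5 and a signal of 60 or more, which was applied here to the higher of the groups compared. By these, 5 members were higher in SNc WT and 0 lower. Over all probesets tested, 2.66% were higher and 3.96% lower at these thresholds. Beside Pde4d 10407124, the 5 were Pde4b, Pde2a, Gucy2c and Prkg2. At an unadjusted p under 0.05, 9 members were higher and 1 lower, against 8.59% and 10.2% of all probesets. Both SNc WT arrays lay above both VTA WT arrays for 17 of the 42 members (29.6% of all probesets) and below them for 8 (28.7%). The median difference of the members was 0.015, against 0.008 over all probesets.

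Pde4b, the other PDE4 gene among the 5, read 7.97 and 8.07 in SNc WT, 8.08 and 8.14 in SNc KO, 7.38 and 7.28 in VTA WT, and 7.52 and 7.46 in VTA KO. The SNc arrays of both genotypes lay above all VTA arrays. The difference between the WT groups was 0.70 (SE 0.104, adjusted p = 0.059 by limma). The remaining PDE4 genes, Pde4a and Pde4c, had differences of -0.05 and -0.14 in this comparison. Pde2a, a phosphodiesterase of both messengers that is itself activated by cGMP, showed the same arrangement, with 7.52 and 7.46 in SNc WT, 7.44 and 7.43 in SNc KO, 7.01 and 6.63 in VTA WT, and 6.92 and 7.02 in VTA KO. Its difference between the WT groups was 0.67 (SE 0.146, adjusted p = 0.109 by limma).

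Gucy2c read 8.35 and 8.52 in SNc WT, 7.79 and 8.00 in SNc KO, 7.90 and 7.33 in VTA WT, and 7.53 and 7.54 in VTA KO. The SNc WT arrays were above all the others, and SNc KO overlapped VTA WT. The difference between the WT groups was 0.82 (SE 0.199, fold 1.77, adjusted p = 0.128 by limma). Leaving out VTA WT replicate 2 took both Gucy2c and Pde2a below the thresholds of the study. Prkg2, whose VTA WT mean of 5.28 was under the minimum, was at least 1.21-fold higher in SNc WT when that mean was set at the minimum, and it missed the thresholds without SNc WT replicate 1 (0.74) or VTA WT replicate 1 (0.61).

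Of the 42 members, 21 had a positive and 21 a negative difference, against 51% and 49% of all probesets. By role, the phosphodiesterases of both messengers had 5 of 7 positive differences (median 0.23), the PKA regulatory subunits 3 of 4 (median 0.25), the phosphodiesterases of cAMP 4 of 9, the adenylyl cyclases 3 of 9 and the soluble guanylyl cyclase subunits 0 of 3 (median -0.22). The photoreceptor subunit Pde6h had the lowest difference of all members (-0.47), and no array of it was above 6.22. Summed marker signals differed between these groups as well. The 12 ependymal and ciliated markers summed to 935 and 876 in SNc WT and to 4270 and 3840 in VTA WT, the 10 astrocyte and radial glia markers, of which Gfap and Aldh1l1 were below the minimum, to 3310 and 3450 against 7220 and 6450, and the 12 general neuronal markers to 17200 and 17300 against 16000 and 15400. The 8 microglia and macrophage markers summed to 578 and 607 in SNc WT and to 467 and 483 in VTA WT. Of these, Aif1, Csf1r, C1qa and P2ry12 were below the minimum. Mrc1 of the same list was called higher in SNc WT (adjusted p = 0.0263 by limma). That call held in 8 of 16 alternatives and ended without any 1 of the SNc WT, SNc KO or VTA WT arrays. Most calls over all probesets ended there too. Of the 11 tested ependymal and ciliated markers, 2 were called lower in SNc WT (adjusted p under 0.05 by limma). The part of these cell types in the differences of the members was not tested.

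**Figure D3:**
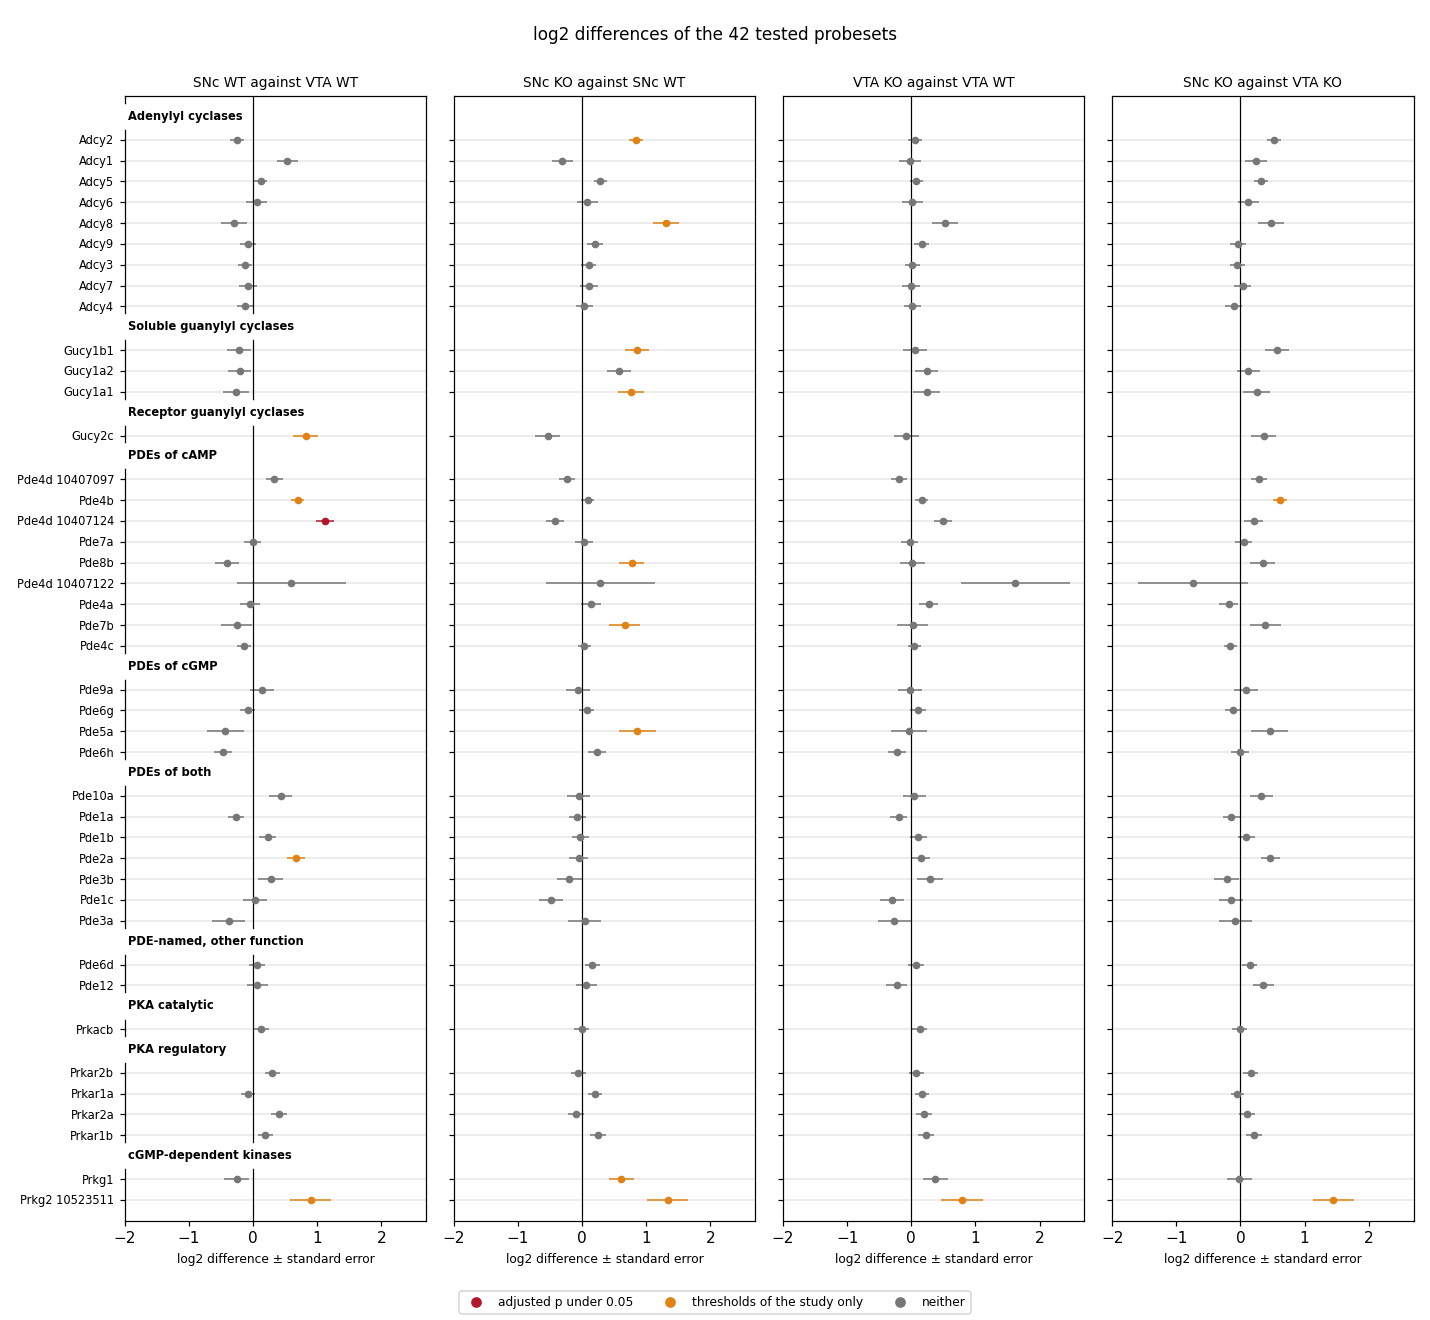
Log2 differences (points) with their standard errors (lines) for the 42 tested probesets in the 4 pairwise comparisons of groups of 2 arrays, grouped by role; red marks an adjusted p under 0.05, orange the thresholds of the study only and grey neither. Pde4d 10407124 in SNc WT against VTA WT is the only red point, and SNc KO against SNc WT holds 9 orange points, all to the right of 0.

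SNc KO against SNc WT asked how the sorted SNc neurons of mice without Pitx3 differ from those of wild-type mice. No member was called at an adjusted p under 0.05 by limma, against 0.0724% of all tested probesets called higher and 0.0769% lower, and the lowest adjusted p was 0.073. At an unadjusted p under 0.05, 11 members were higher and 3 lower, against 4.82% and 3.8%. At the thresholds of the study, 9 members were higher and 0 lower in SNc KO, or 21.4% of those tested, against 1.84% higher and 1.76% lower over all probesets. With probesets taken by their mean over the 8 arrays, it was 9 of 41 against 1.71%. The 9 were Adcy2, Adcy8, Gucy1a1, Gucy1b1, Pde5a, Pde7b, Pde8b, Prkg1 and Prkg2, so that cyclases, phosphodiesterases and kinases were all among them. The median over the members was 0.09, against 0.01 over all, with 28 positive and 14 negative differences (52.8% and 47.2% of all probesets). This comparison uses the same SNc WT arrays as that of the WT groups, so each gene's own values are given for all 4 groups.

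Adcy2 was the member closest to a call. It read 7.52 and 7.59 in SNc WT, 8.37 and 8.42 in SNc KO, 7.77 and 7.86 in VTA WT, and 7.79 and 7.95 in VTA KO. The SNc KO arrays were above all 6 others, and the SNc WT arrays below all the others. The difference was 0.84 (SE 0.109, fold 1.79, adjusted p = 0.073 by limma). Adcy8, a cyclase stimulated by calcium and calmodulin, had the larger difference of 1.30 (SE 0.206, fold 2.47, adjusted p = 0.124 by limma), from 6.12 and 6.46 in SNc WT to 7.73 and 7.46 in SNc KO. In VTA WT it read 6.79 and 6.39 and in VTA KO 7.25 and 6.98, so that the KO arrays of both regions lay above all WT arrays. Adcy1, which like Adcy8 answers to calmodulin, had a difference of -0.31 with the opposite sign. Of the 9 tested adenylyl cyclases, 8 had a positive difference, with a median of 0.11.

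All 3 tested soluble guanylyl cyclase subunits had higher values in both SNc KO arrays than in both SNc WT arrays. Such a gap was seen for 18 of the 42 members and 24% of all probesets, and the opposite one, with SNc WT above, for 7 members and 20% of all probesets. Gucy1b1, the common beta subunit, read 7.07 and 7.36 in SNc WT, 8.04 and 8.11 in SNc KO, 7.64 and 7.22 in VTA WT, and 7.37 and 7.63 in VTA KO. The SNc KO arrays were above all others. The difference was 0.86 (SE 0.187, fold 1.81, adjusted p = 0.247 by limma). Its partner Gucy1a1, which lies next to it on chromosome 3 with 0 genes between them in the gene table, read 7.05 and 6.79 in SNc WT, 7.78 and 7.59 in SNc KO, 7.29 and 7.09 in VTA WT, and 7.70 and 7.16 in VTA KO. VTA KO replicate 1 here lay within the range of SNc KO. The difference was 0.76 (SE 0.208, adjusted p = 0.373 by limma). The alternative alpha subunit Gucy1a2, with a difference of 0.57 and a fold of 1.49, was just under the fold minimum.

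The cGMP side also held a phosphodiesterase and both kinases. Pde5a, the cGMP-specific enzyme that sildenafil blocks, read 5.78 and 5.22 in SNc WT and 6.27 and 6.45 in SNc KO, with 6.09 and 5.77 in VTA WT and 6.26 and 5.54 in VTA KO. Its SNc WT arrays were below the signal minimum of 5.91 on the log2 scale, and its difference of 0.86 (SE 0.288, adjusted p = 0.474 by limma) was taken against a mean under the minimum. With that mean set at the minimum, Pde5a was at least 1.37-fold higher in SNc KO. Prkg1, the main PKG of smooth muscle and of many neurons, read 7.36 and 7.53 in SNc WT, 8.03 and 8.08 in SNc KO, 7.99 and 7.41 in VTA WT, and 8.02 and 8.12 in VTA KO. The KO arrays of both regions were alike, and 1 VTA WT array came close to them. The difference in SNc was 0.61 (SE 0.195, adjusted p = 0.449 by limma).

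Prkg2, the membrane-bound PKG, had the largest difference of the members in this comparison. Probeset 10523511 read 6.35 and 6.02 in SNc WT, 7.70 and 7.34 in SNc KO, 4.99 and 5.57 in VTA WT, and 6.47 and 5.68 in VTA KO. SNc KO was above every other array, and both VTA WT arrays were under the signal minimum. The difference between SNc KO and SNc WT was 1.34 (SE 0.32, fold 2.52, adjusted p = 0.302 by limma). The other Prkg2 probeset, which was not tested, read 5.58 and 5.37 in SNc WT and 5.77 in both SNc KO arrays, with 1 of its 8 values over the minimum.

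On the cAMP side, Pde8b, a cAMP phosphodiesterase of high affinity, read 6.31 and 6.14 in SNc WT, 6.93 and 7.06 in SNc KO, 6.83 and 6.42 in VTA WT, and 6.84 and 6.45 in VTA KO. SNc KO was the highest group and SNc WT the lowest, without overlap. The difference was 0.77 (SE 0.192, adjusted p = 0.318 by limma). Pde7b, of another cAMP-specific family, read 6.14 and 5.59 in SNc WT and 6.70 and 6.35 in SNc KO, a difference of 0.66 (SE 0.241, adjusted p = 0.514 by limma) that was 0.39 to 0.94 when an array was left out. Its SNc WT mean was under the minimum, and against the minimum it was at least 1.54-fold higher in SNc KO. Its VTA arrays lay between 5.93 and 6.35. By contrast, the phosphodiesterases of both messengers had 6 of 7 negative differences, with a median of -0.06 and a range from -0.48 (Pde1c) to 0.04. Gucy2c (-0.54) and Pde4d 10407124 (-0.42) also read lower on both SNc KO arrays than on either SNc WT array, with adjusted p = 0.527 and 0.488 by limma.

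At the thresholds of the study, Adcy2, Adcy8, Gucy1b1, Pde8b and Prkg2 held in all 16 alternatives at the same fold minimum. Gucy1a1 and Pde7b were lost without SNc WT replicate 2 or SNc KO replicate 1, Pde5a without any of SNc WT replicate 2 and SNc KO replicates 1 and 2, and Prkg1 without SNc WT replicate 1 or either SNc KO array, and also with quantile normalization. Pde5a and Pde7b were not tested with a signal minimum of 100.

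Summed marker signals of other cells and of neuron types differed between SNc KO and SNc WT too. The 13 pericyte and smooth muscle markers, cells in which soluble guanylyl cyclase, Pde5a and Prkg1 are well known, summed to 993 and 922 in SNc WT, 2370 and 2150 in SNc KO, 2920 and 2170 in VTA WT, and 2740 and 749 in VTA KO. The sum was lowest in SNc WT and VTA KO replicate 2, and as high in VTA WT as in SNc KO. A linear sum is weighted towards its highest signals, here mainly Rgs5. On the log2 scale Rgs5 read 8.27 and 7.83 in SNc WT, 10.16 and 9.98 in SNc KO, 10.40 and 9.96 in VTA WT, and 10.29 and 6.22 in VTA KO. Of the 13, 11 were over the minimum (Des and Cnn1 were not), 3 were higher in SNc KO at the thresholds of the study, and the median difference was 0.70. The 3 glutamatergic markers summed to 631 and 526 in SNc WT, 1160 and 1120 in SNc KO, 939 and 1070 in VTA WT, and 1240 and 1090 in VTA KO, with Slc17a7 below the minimum. The GABAergic markers summed to 759 and 818 in SNc WT and to 1270 and 1160 in SNc KO. The 12 dopaminergic markers summed to 9920 and 9320 in SNc WT and to 6830 and 7610 in SNc KO. Of these 12, 1 was called lower in SNc KO (adjusted p under 0.05 by limma). The microglia and macrophage markers summed to 487 and 458 in SNc KO, and Mrc1 was called lower there than in SNc WT (adjusted p = 0.038 by limma). That call held in 4 of 16 alternatives and ended without any 1 of the 8 arrays. Most calls over all probesets also ended without an SNc or VTA WT array, but not without a VTA KO array.

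The duplicate VTA arrays differed in the pericyte sum, which was higher on replicate 1 than on replicate 2 in VTA WT (2920 and 2170) and in VTA KO (2740 and 749). So were the astrocyte and radial glia sum (7220 and 6450, 5700 and 3020) and the ependymal and ciliated sum (4270 and 3840, 2800 and 1750). Some sums went the other way, among them the glutamatergic one in VTA WT (939 and 1070) and the dopaminergic one in VTA KO (6910 and 7120). These arrays therefore cannot tell 1 cell type from another. Of the 9 members at the thresholds of the study in SNc, 7 were higher on replicate 1 in VTA WT (all but Adcy2 and Prkg2), against 49.4% of all probesets. In VTA KO, 6 of the 9 were higher on replicate 1 (Adcy8, Gucy1a1, Pde5a, Pde7b, Pde8b and Prkg2), against 50.4%, and Adcy2, Gucy1b1 and Prkg1 were not. Each of these counts compares 1 array with 1 other, and members on the same array are not separate observations. The part of other cell types in the differences between SNc KO and SNc WT was not tested.

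**Figure D4:**
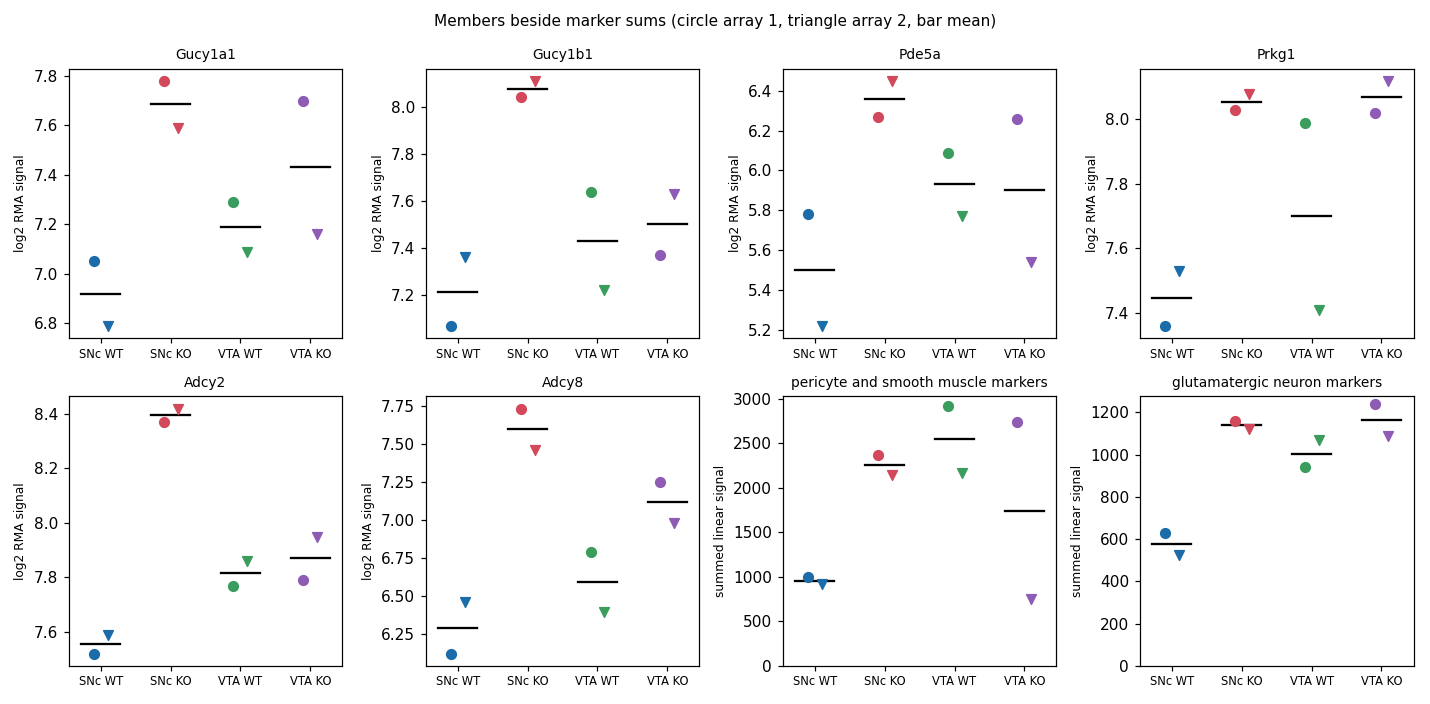
Log2 RMA signal of 6 members and the summed linear signal of the pericyte and smooth muscle and of the glutamatergic neuron markers, by group, with circles for array 1, triangles for array 2 and bars for the mean of 2 arrays. The pericyte sum is as high in VTA WT (2920 and 2170) as in SNc KO (2370 and 2150), and it differs between the VTA KO arrays (2740 and 749).

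VTA KO against VTA WT asked the same of the VTA. No member was called at an adjusted p under 0.05 by limma, against 0.00904% of all probesets called higher and 0 lower, and 3 members had an unadjusted p under 0.05, all higher in VTA KO, against 4.73% higher and 5.51% lower over all. At the thresholds of the study, Prkg2 alone was higher and 0 members were lower, against 1.92% higher and 2.42% lower over all probesets. The Prkg2 difference was 0.79 (SE 0.32, adjusted p = 0.476 by limma) with 3 of the 4 VTA arrays under the signal minimum. It was 0.40 to 1.19 when an array was left out, it met these thresholds in 7 of 16 alternatives, and with the VTA WT mean set at the minimum it was a fold of at least 1.12. Both VTA KO arrays lay above both VTA WT arrays for 14 members (17.5% of all probesets) and below them for 3 (20.7%), and 30 of the 42 differences were positive and 12 negative (45.7% and 54.3%). Adcy8 differed by 0.52 (adjusted p = 0.463 by limma) with no overlap of the arrays, and Pde4d 10407124 by 0.49 (adjusted p = 0.331 by limma). Pde4d 10407097 averaged 7.82 in VTA WT and 7.62 in VTA KO, and Pde4d 10407122 averaged 5.70 and 7.32. For the members named in SNc, the VTA differences were 0.06 for Adcy2, 0.07 for Gucy1b1, 0.24 for Gucy1a1, -0.04 for Pde5a, 0.03 for Pde7b, 0.02 for Pde8b and 0.37 for Prkg1. The GABAergic marker sum was 750 and 762 in VTA WT and 1230 and 1060 in VTA KO, the ependymal and ciliated sum 4270 and 3840 against 2800 and 1750, the astrocyte and radial glia sum 7220 and 6450 against 5700 and 3020, and the dopaminergic sum 8320 and 8150 against 6910 and 7120. Of the 12 dopaminergic markers, 3 were lower and 1 higher in VTA KO at an unadjusted p under 0.05 by limma. Their median difference was -0.08. The part of these cell types in the VTA differences of the members was not tested.

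Whether the KO difference itself differed between SNc and VTA was tested as an interaction. No probeset of the 22112 was called, and 5 members had an unadjusted p under 0.05, 4 of them higher and 1 lower, against 5.53% and 4.36% of all probesets. The 4 were Adcy2 (0.78, SE 0.154, adjusted p = 0.307 by limma), Gucy1b1 (0.79, adjusted p = 0.467 by limma), Adcy8 (0.78, adjusted p = 0.477 by limma) and Pde8b (0.76, adjusted p = 0.473 by limma). Pde4d 10407124 went the other way (-0.91, SE 0.204, adjusted p = 0.347 by limma), with a negative KO difference in SNc and a positive one in VTA. A difference of the KO effect between the regions was thus not shown for any member.

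SNc KO against VTA KO compared the sorted neurons of both regions in the absence of Pitx3. No member was called at an adjusted p under 0.05 by limma, against 0.0407% of all probesets called higher and 0.109% lower, and 6 members had an unadjusted p under 0.05, all higher in SNc KO, against 9.73% higher and 7.81% lower over all. The arrays did not overlap for 17 members higher in SNc KO (26.8% of all probesets) and for 6 lower (21.8%), and 27 differences were positive and 15 negative (54.8% and 45.2%). At the thresholds of the study, Pde4b (0.62, fold 1.53, adjusted p = 0.119 by limma) and Prkg2 (1.45, SE 0.32, fold 2.73, adjusted p = 0.156 by limma) were higher in SNc KO and 0 members lower, against 3.47% and 3.5% of all probesets. Pde2a differed by 0.47, Adcy2 by 0.52 and Gucy1b1 by 0.58, all under the fold minimum. Pde4d 10407124 differed by 0.21 here, with 7.88 and 7.76 in SNc KO and 7.47 and 7.76 in VTA KO. The comparisons share arrays, so the values of Pde4b and Prkg2 in the WT and KO comparisons of the regions are set side by side and not counted as agreement.

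The 5 tested PKA subunits had differences between -0.10 and 0.41 in the 4 pairwise comparisons. Prkacb read between 10.45 and 10.74 over the 8 arrays, and its differences were 0.13 in SNc WT against VTA WT (95% interval -0.15 to 0.41), -0.01 in SNc KO against SNc WT (-0.28 to 0.27) and 0.13 in VTA KO against VTA WT (-0.14 to 0.41). Prkar2b read 10.06 and 10.07 in SNc WT and 9.68 and 9.86 in VTA WT, a difference of 0.30 (adjusted p = 0.24 by limma), and -0.06 between SNc KO and SNc WT. Prkar2a, the regulatory subunit found in most tissues, differed by 0.41 between the WT groups (adjusted p = 0.184 by limma). Prkar1a and Prkar1b, the type I subunits, lay between 8.03 and 8.89, with differences from -0.08 to 0.24 in the 4 pairwise comparisons.

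Further members had the highest signal of their role without meeting the thresholds of the study. Pde10a, an enzyme best known from the medium spiny neurons of the striatum, read 8.49 and 8.50 in SNc WT, 8.50 and 8.39 in SNc KO, 8.31 and 7.82 in VTA WT, and 8.01 and 8.22 in VTA KO, with 0.43 between the WT groups (adjusted p = 0.267 by limma), whose arrays did not overlap, and -0.05 between the SNc groups. Without VTA WT replicate 1 the difference between the WT groups was 0.68 and met the thresholds of the study. Pde9a, the cGMP phosphodiesterase with the highest signal, had differences between -0.07 and 0.14 in the 4 pairwise comparisons. Pde6d, which carries a phosphodiesterase name but is a carrier of prenylated proteins, lay between 8.08 and 8.41. Pde7a lay between 7.28 and 7.53 on all arrays.

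Genes that act around these enzymes were read from lists of G protein alpha subunits (6 of 7 tested), PKA inhibitors (3 of 3), A kinase anchoring proteins (11 of 14), cAMP-activated exchange factors (2 of 4), cyclic nucleotide gated channels (1 of 6), the CREB family (8 of 8), the nitric oxide and natriuretic peptide inputs (10 of 14) and kinase substrates that act on phosphatase 1 (3 of 4). In SNc KO against SNc WT, 0 genes of these lists were called by limma, no list had more than 1 gene in either direction at an unadjusted p under 0.05, and the medians were -0.01 for the CREB family, -0.01 for the G protein alpha subunits and 0.05 for the nitric oxide and natriuretic peptide inputs. The anchoring protein Akap14 was the only gene of these lists called in any of the 5 comparisons. It read 5.36 and 4.99 in SNc WT, 5.13 and 5.30 in SNc KO, 6.99 and 6.76 in VTA WT, and 6.89 and 6.74 in VTA KO, below the signal minimum in SNc and above it in VTA. It was at least 1.96-fold higher in VTA WT than in SNc WT (adjusted p = 0.0167 by limma) and at least 1.88-fold higher in VTA KO than in SNc KO (adjusted p = 0.0402 by limma), with the SNc means set at the signal minimum. The call between the WT groups held in 10 of 16 alternatives and ended without any 1 of the SNc WT, SNc KO or VTA WT arrays. The call between the KO groups held in 5 of 16 and ended without any 1 array other than VTA KO replicate 2. Most calls over all probesets ended without the same arrays, so these losses are not particular to Akap14. The ependymal and ciliated marker sums were also higher in VTA, with 4270 and 3840 in VTA WT and 2800 and 1750 in VTA KO. They were 876 to 959 in the SNc arrays. Of the 11 tested markers of this list, 2 were called higher in VTA WT than in SNc WT (adjusted p under 0.05 by limma). Between the KO groups, 2 were called higher in VTA KO. Within VTA the sums were lower in KO than in WT. Akap14, a single probeset on the log2 scale, read 6.89 and 6.74 in VTA KO and 6.99 and 6.76 in VTA WT. The part of ciliated cells was not tested.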

How the data were processed

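RNA of sorted EGFP+ cells was hybridized to 8 arrays, 2 for each of 4 groups. The log2 values used were deposited by the authors, who had summarised the probes with RMA Express. For its version and the build, the sources used here give nothing. Of 35512 probesets, 21789 carry 1 gene symbol, 1621 several and 12102 none, by the platform annotation checked against a gene table of GRCm38.p6 (21698 gene IDs found, 0 symbols changed). Promoter sequences are those of RefSeq.

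All 8 arrays entered 1 limma fit (version 3.58.1, R 4.3.3) with a mean for each group, 4 residual and 2.4 prior degrees of freedom. It covered the 22112 probesets whose mean linear signal reached 60 in any group, and p-values were adjusted by Benjamini-Hochberg within each comparison, with a threshold of 0.05. The thresholds of the study were applied with limma's p. Its methods print the p threshold as at least 0.05 and its results as at most 0.05, and the latter was used. The local pooled error test named in the methods was not run here. The precision is that of 2 arrays per group.

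Members and lists were chosen with earlier results of these data known. Genes were named when called, when at the thresholds of the study in a pairwise comparison, when named in the definition of the family (Pde4d and Gucy2c), or when highest in their role. Adcy1, Gucy1a2, Pde1c, Pde4a, Pde4c, Pde6h, Pde7a, Prkar1a, Prkar1b and Prkar2a were named outside this rule, after their values were seen. Alternatives were no signal filter, a minimum of 100, medians subtracted, quantile normalization, a variance trend, array weights, a replicate block, a fit of the compared groups alone, a fold of 2 and leaving out each array.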

Additional observations from a re-analysis of the deposited data

How the results depend on the processing

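Members called at an adjusted p under 0.05 by limma in SNc WT against VTA WT numbered 1, with 97 of all probesets called. They were 0 without a signal filter (62 of all called), 2 with a minimum of 100 (129) and 2 with medians subtracted (120). With array weights they were 2, where 847 of all probesets were called. The added member was Pde4b, and Pde4d 10407124 was called in 8 of 16 alternatives, with an adjusted p by limma from 0.0105 to 0.221 and a difference from 1.03 to 1.23. In SNc KO against SNc WT, 1 member was called with array weights (Adcy2, adjusted p = 0.0267 by limma). In that setting 89 of all probesets were called, against 33 in the main fit. In SNc KO against VTA KO, no member was called in an alternative that kept both arrays of the groups compared. Without VTA KO replicate 2, where far more of all probesets passed than in the main fit, Adcy2 differed by 0.60. At the thresholds of the study with a fold of 2, the counts were 1 in SNc WT against VTA WT, 2 in SNc KO against SNc WT, 0 for the KO difference in VTA and 1 in SNc KO against VTA KO. At the fold of 1.5 of the study, where the counts were 5, 9, 1 and 2 in the same order, leaving out an array gave 4 to 7, 6 to 9, 0 to 2 and 2 to 4. For VTA KO against VTA WT the count was 2 with quantile normalization and 0 with array weights. For SNc KO against VTA KO it was 4 with medians subtracted and 1 with quantile normalization. No named member's difference past a threshold changed sign in any alternative, and the cause of these changes was not tested.

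With the replicate number as a block, 0 members were called in SNc WT against VTA WT (Pde4d 10407124, adjusted p = 0.0769 by limma). Over all probesets 71 were called there, against 97 in the main fit. In VTA KO against VTA WT, 0 members were at the thresholds of the study with this block. Deviations of same-numbered arrays correlated between 0.006 and 0.098. Such values cannot show whether these arrays had a batch or preparation in common. The arrays were not taken as pairs. Signal limits Pde5a, Pde7b, Prkg2 and Akap14, whose values in at least 1 group were near or under the minimum.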
